A study of Triticum aestivum with 15 samples.

Results

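Germinating seeds of the bread wheat cultivar Jimai 20 at 48 hours after imbibition (HAI) were compared with seeds of the same cultivar at 24 HAI. The comparison used the 3 arrays labelled P4 and the 3 labelled P2, which are 6 of the 15 arrays in the series. The other 9 arrays hold dry seed (0 HAI) and seeds at 12 and 36 HAI, again with 3 arrays at each time. Seeds of all imbibed stages were steeped in sterile water for 12 hours, moved to petri dishes with sterile water and left to germinate, with no further treatment. Total RNA was hybridized to the Affymetrix Wheat Genome Array, which measures each transcript with a set of short probes (a probe set), and the 3 arrays of a stage are described as biological replicates from independent experiments. Of 61290 probe sets, 175 controls were set aside and 61115 were tested.

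Around 24 HAI the radicle breaks through the tissues covering the embryo, and by 48 HAI the roots have lengthened and the young shoot is turning green. A cereal seed in this window changes from an embryo that lives on what it stored during maturation to a seedling that builds cell walls, divides, draws sugars from the endosperm and assembles chloroplasts. Desiccation protectants, storage proteins and heat shock proteins are transcribed during seed maturation, and their stored mRNA is known to disappear after imbibition.

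The samples are labelled as germinating seed and no dissection is described, so each is taken to hold embryo, aleurone and endosperm together. Fewer cells of a type and less RNA per cell therefore cannot be told apart in any value below. The roots and shoot are also a growing share of what was extracted, and the part of that share in the results was not tested.

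The arrays of both stages were alike in overall signal. Between 33.4% and 37.6% of probe sets were under an intensity of 32 at 24 HAI and between 33.2% and 38.3% at 48 HAI, and arrays of a stage correlated at r of 0.963 to 0.969 and 0.962 to 0.968 across probe sets. Signs of RNA quality moved between the stages and not all in the same direction. For glucose-6-phosphate dehydrogenase the 3′ over 5′ signal was 16.1 ± 0.627 (SD, n = 3) in seeds of 24 HAI and 28.6 ± 7.38 in those of 48 HAI, that of sucrose synthase was 134 ± 33.5 and 80.1 ± 29.7, and that of ubiquitin was 0.664 ± 0.0109 and 0.762 ± 0.0595. Actin and glyceraldehyde-3-phosphate dehydrogenase, both dim, had ratios of 0.296 ± 0.208 and 0.211 ± 0.135 at 24 HAI and of 8.5 ± 2.53 and 1.07 ± 1.02 at 48 HAI. Their part in the results was not tested.

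Between 24 and 48 HAI, 3987 probe sets rose (6.52% of those tested) and 4424 fell (7.24%), at an adjusted p under 0.05 by limma with Benjamini-Hochberg adjustment over all 61115 probe sets. Together these are 8411 probe sets, or 13.8%. Of the risen probe sets, 1797 changed at least 2-fold, 366 at least 4-fold and 88 at least 8-fold, and of the fallen ones 1761, 270 and 58. The median change was 0.94 on the log2 scale among those that rose and -0.87 among those that fell, against -0.005 over all probe sets. The arrays of the stages did not overlap for 3974 of the risen and 4407 of the fallen probe sets, and for 33.0% of all probe sets tested. How many rose and how many fell depended on the scaling. The hybridization controls, which are added in equal amounts to every array, averaged 12.02 ± 0.14 on the log2 scale at 24 HAI and 12.24 ± 0.12 at 48 HAI. With the arrays scaled to these controls the median of all probe sets moved to -0.150, and 1433 rose and 4102 fell, so that the risen share of the calls went from 47.4% to 25.9%. With the poly-A controls, which are added before labelling, the median was -0.160, and 2510 rose and 7777 fell, a risen share of 24.4%.

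The mean at 36 HAI lay between those of 24 and 48 HAI for 2935 of the risen probe sets (73.6%) and 2942 of the fallen ones (66.5%). It lay past the 48 HAI mean for 301 and 507, and on the far side of the 24 HAI mean for 751 and 975. An intermediate mean is likely beforehand in probe sets chosen for a difference between the ends, so these counts describe the called probe sets only. The risen probe sets had a median first step (24 to 36 HAI) of 0.30 on the log2 scale and a second step (36 to 48 HAI) of 0.61, and the fallen ones had -0.32 and -0.52. These steps share arrays with the whole interval and with each other, so they are given only side by side. Tested on their own in the same model, 1472 probe sets (2.41%) rose and 1834 (3.00%) fell from 24 to 36 HAI, and 3270 (5.35%) rose and 3233 (5.29%) fell from 36 to 48 HAI.

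The platform table gave a gene symbol to 1273 of the probe sets tested, most of them a bare LOC number. Only 356 probe sets, for 216 genes, carried a name or a description beyond such a number, from that table or from the tables of the study, and of these 47 rose, 100 fell and 209 did not pass the test, so 41.3% were called. This share cannot be set against the background of 13.8%, because many of the names come from tables of genes that the study chose on these samples. The same limit applies to the counts and medians of the lists that hold such names. Below, genes are called by the symbol or sequence accession of the annotation and grouped by role. Wheat carries near-identical copies of most genes, and a probe set whose ID ends in _x_at or _s_at can take up signal from related transcripts. Their values may be shared between copies. Where a gene had several probe sets, the text gives most of those chosen by the rule for naming and some of the others. Outside that rule, and with rbcL left out, 34 of the genes had 48 further probe sets, of which 4 rose, 6 fell and 38 did not pass the test. A sum of probe sets for a marker list is an intensity summed over those probe sets. An intensity under 32 is close to the background, and where a stage mean was under 32 the fold is given as a bound. Where some arrays of a stage were under 32 but their mean was not, any fold given is uncertain.

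**Figure D1:**
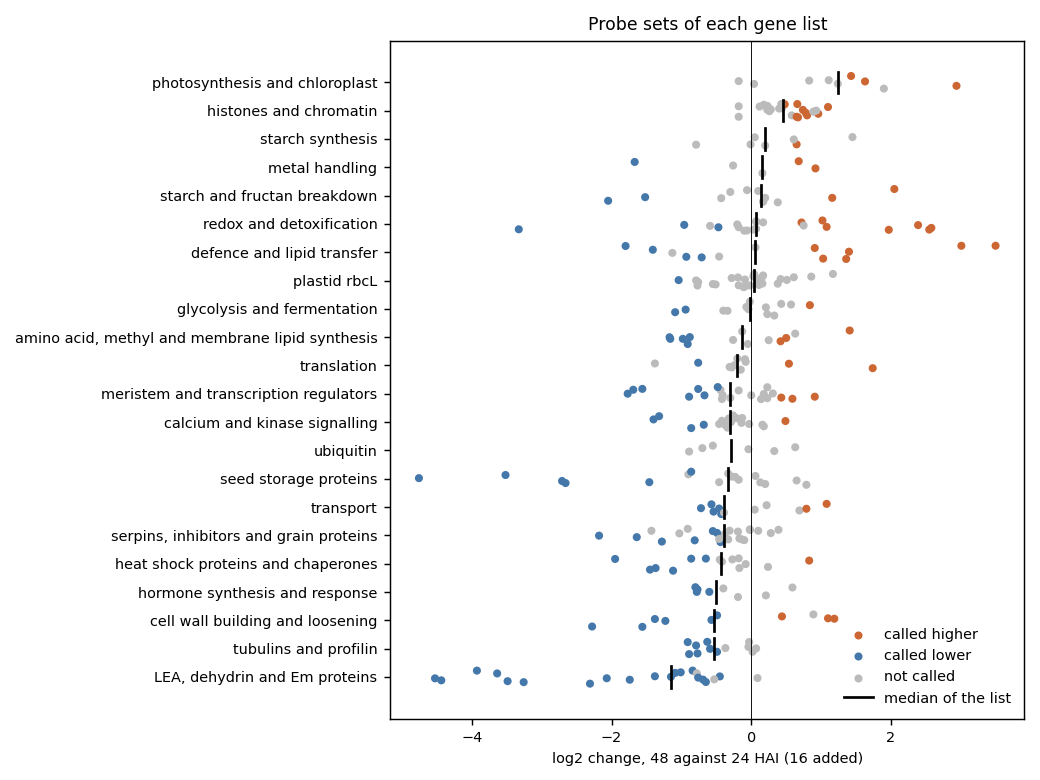
Log2 change of intensity from 24 to 48 HAI (horizontal axis) for the named probe sets in 22 gene lists (vertical axis), coloured by rise, fall or neither call, with the 38 named probe sets of no list left out, with the median of each list in black. The LEA, dehydrin and Em proteins lie furthest to the left with a median of -1.15, and the photosynthesis genes furthest to the right with a median of 1.24.

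Most named probe sets for desiccation protectants of the maturing embryo fell. Many of their names come from the study's tables of genes chosen on these samples, so the counts partly follow from that choice. Of 21 probe sets for 15 genes of LEA (late embryogenesis abundant), dehydrin and Em proteins, 18 fell, 0 rose and 3 did not pass the test. The median log2 change of the 21 was -1.15. Their summed intensity was 91454 to 107331 in the arrays of 24 HAI and 37756 to 43387 in those of 48 HAI. These proteins are known as water-binding protectants that keep dry embryo cells intact.

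Em, the early-methionine-labelled class of LEA protein, had the steepest falls of the list. The probe set of LOC543480 ending in _s_at had intensities of 10254, 9723 and 9236 at 24 HAI and 393, 332 and 505 at 48 HAI. Every array of 48 HAI was far below every array of 24 HAI, a 23.2-fold fall (log2 change -4.53, SE 0.17, adjusted p = 3.18e-08, limma). The mean at 36 HAI was 914, with log2 steps of -3.39 and -1.14, so most of the fall was seen in the first 12 hours. The related Em gene LOC543497 (probe set ending in _s_at) had 7876, 8844 and 8715 at 24 HAI and 368, 376 and 379.9 at 48 HAI, a 21.7-fold fall (log2 change -4.44, SE 0.13, adjusted p = 1.09e-08). The other probe sets of both genes fell by 9.56-fold to 12.4-fold. In dry seed their means had been 54727 to 74153 over the 5 probe sets.

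A further Em transcript, CD490513, was matched through its sequence cluster and is among those the study followed by quantitative PCR. It had 444, 404 and 386 at 24 HAI and only 11.6, 23.2 and 4.13 at 48 HAI, at least a 12.8-fold fall (log2 change -3.93, adjusted p = 2.66e-07). It was already at a mean of 5.29 at 36 HAI. The Lea14-A gene CD908263, which the same PCR panel holds, fell less, from 3109, 3116 and 2895 to 1744, 1827 and 2079 (1.61-fold, log2 change -0.69, SE 0.12, adjusted p = 0.00213), and its groups did not overlap. The study's primers for both are printed to identify the transcripts, 5′ to 3′ and without capitals, since no base is singled out.
CD490513 forward: ctgtgaggccgtacatcgtctac
CD490513 reverse: agctcaaggaggtcaagaagga
CD908263 forward: ggcagggattgggacat
CD908263 reverse: agccgccgaagaagt

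The dehydrin LOC542888 fell by both of its probe sets. The brighter read 2408, 2755 and 2549.5 at 24 HAI and 940.1, 969 and 1015 at 48 HAI (2.61-fold lower, log2 change -1.38, SE 0.13, adjusted p = 2.62e-05), and the dimmer fell from 208, 281 and 253 to 77, 9.01 and 46.7, which is 4.97-fold (log2 change -2.31, SE 0.35, adjusted p = 0.000783), with no overlap between the stages. The brightest member that did not pass the test was LOC543084, a LEA gene. Its arrays read 10049, 14627 and 20412 at 24 HAI and 10615, 8964 and 6238 at 48 HAI, and the stages overlapped (log2 change -0.78, SE 0.31, adjusted p = 0.141). Its adjusted p was 0.0454 with poly-A scaling and 0.043 with an intensity trend in the variance.

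Storage protein transcripts are made in the starchy endosperm. Of 17 probe sets for 8 genes, 6 fell, 0 rose and 11 did not pass the test, and 7 were under 32 at both stages. The median log2 change was -0.33. Over the 13 gliadin and glutenin probe sets the summed intensity was 2304 to 2555 at 24 HAI and 450 to 490 at 48 HAI, and 0 of the 13 was listed at 0 in any array. An alpha-gliadin, LOC543212 (the probe set with the larger change), had 539, 682 and 656 at 24 HAI and 4.26, 3.84 and 16.2 at 48 HAI, at least a 19.4-fold fall (log2 change -4.76, SE 0.29, adjusted p = 1.1e-06). It passed through 135 at 36 HAI, and its steps of -2.13 and -2.63 were both large. The gamma-gliadin LOC543214 fell at least 6.89-fold, from 196, 238 and 229.8 to 3.27, 5.7 and 5.07, which is close to background in every array of 48 HAI. LOC543211, another alpha-gliadin, stayed above background, with 971, 783 and 812 at 24 HAI and 103, 134 and 115 at 48 HAI (6.52-fold lower, log2 change -2.71, adjusted p = 2.05e-07). The brightest member outside the calls was the avenin-like protein LOC100125692, at 4743 ± 203 (SD, n = 3) and 4183 ± 209.

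Grain inhibitors and defensive grain proteins had 24 probe sets for 16 genes. Of these 7 fell, 0 rose and 17 did not pass the test (median -0.39, 7 under 32 at both stages). Without 24 HAI replicate 1 or 3 or 48 HAI replicate 2, 4 fell, and without any other array of the 6, 5 fell. With hybridization scaling 5 fell, and with poly-A scaling 10 fell. The serpin LOC542985 (WSZ1c), a protease inhibitor of the grain, was 189, 213 and 117 at 24 HAI and 5.32, 49.1 and 32.7 at 48 HAI, at least a 4.51-fold fall (log2 change -2.18, SE 0.35, adjusted p = 0.00125). A gamma-thionin homolog, LOC100125699, remained bright while it fell 1.46-fold, from 11689, 11849.9 and 11338 to 8428, 7455 and 7979 (adjusted p = 0.00334), with all of that fall before 36 HAI (steps -0.62 and 0.07). The xylanase inhibitor LOC542997 (XIP-I) was 18711 ± 794 and 14214 ± 288, with an adjusted p of 0.107 (0.0138 with poly-A scaling, 0.0146 with an intensity trend and 0.023 with quantile normalization). The purothionin gene THI1.1 (Pur-B1, Pur-D1) fell by its _s_at probe set with an adjusted p of 0.0411, and lost the call without any array of 24 HAI or without 48 HAI replicate 2 (0.0703 to 0.151) and in 3 further alternatives. Its _x_at probe set was not called (log2 change -1.43, adjusted p = 0.0626). The alpha-amylase inhibitor LOC542981 fell 1.75-fold with an adjusted p of 0.0213, and lost the call without 24 HAI replicate 1 or 48 HAI replicate 1 or 2 (0.0623 to 0.0917), with equal medians (0.0514) and with hybridization scaling (0.0668).

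Heat shock proteins and their regulators had 14 probe sets for 11 genes, of which 6 fell, 1 rose and 7 did not pass the test, with a median of -0.44. Class II small heat shock proteins bind unfolding proteins and are stored in dry seeds. LOC543421 had 1001, 892 and 821 at 24 HAI and 267, 181 and 226 at 48 HAI, a 3.85-fold fall (log2 change -1.95, SE 0.15, adjusted p = 5.08e-06), and LOC543404 fell 2.17-fold, from 557, 659 and 629.5 to 281, 267 and 274. Neither overlapped between the stages. Genes with the DNA-binding domain of heat shock factors, CK208279 and CK211827, fell 2.58-fold and 2.74-fold. Their falls lay before 36 HAI, with first steps of -1.49 and -1.41 and second steps of 0.13 and -0.05. Other members did not pass the test, among them an immunophilin and a chaperonin subunit. The immunophilin FKBP70 (LOC543314) was at 9707 ± 85.7 and 11463 ± 323 (adjusted p = 0.156, but 0.0079 with an intensity trend), and the T-complex chaperonin subunit CD453856 was at 3591 ± 369 and 3182 ± 173 by its _a_at probe set (adjusted p = 0.652).

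**Figure D2:**
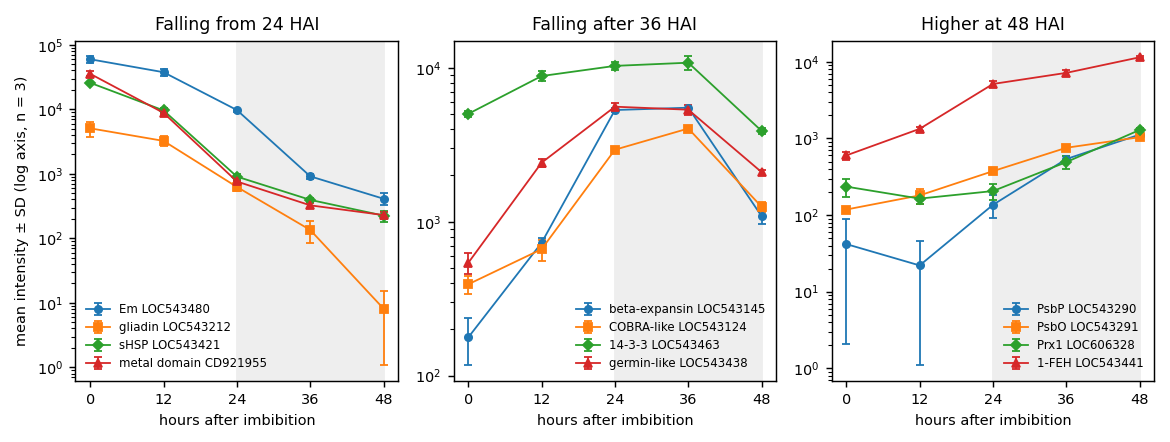
Mean intensity with SD (n = 3) on a log axis against hours after imbibition for 12 genes over all 5 stages, in 3 panels. The genes were chosen after their values were seen, and lower error bars are drawn to at most 95% of the mean. Em LOC543480 dropped from 9738 at 24 HAI to 410.2 at 48 HAI, beta-expansin LOC543145 held 5324 and 5513 at 24 and 36 HAI before 1085 at 48 HAI, and PsbP LOC543290 climbed from 136 to 1124.

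Of 9 probe sets for 6 nuclear genes of photosynthesis and the chloroplast, 3 rose, 0 fell and 6 did not pass the test, with the highest median of the lists at 1.24, and 2 were under 32 at both stages. PsbP (LOC543290) and PsbO (LOC543291) are the extrinsic proteins of the oxygen-evolving complex of photosystem II. PsbP had 184.7, 124.7 and 99.1 at 24 HAI and 1160.3, 1102.1 and 1110.5 at 48 HAI, a 7.7-fold rise (log2 change 2.94, SE 0.49, adjusted p = 0.00161), through 539 at 36 HAI. A dim _x_at probe set given to PsbP was not called (log2 change 1.24, adjusted p = 0.148). PsbO had 400.3, 364 and 360.3 and then 1083, 976 and 1061, a 2.7-fold rise (log2 change 1.43, SE 0.15, adjusted p = 5.93e-05). PsbO and the brighter PsbP probe set were higher in every array of 48 HAI than in any of 24 HAI. Both had a larger log2 step from 24 to 36 HAI (0.98 for PsbO and 1.90 for PsbP) than from 36 to 48 HAI (0.45 for PsbO and 1.04 for PsbP). Thioredoxin M (LOC542973), which reduces enzymes of the chloroplast stroma, rose 3.09-fold from 77.2, 74 and 97.5 to 294, 306 and 264. The Rieske iron-sulfur protein petC, which carries electrons in the cytochrome b6f complex, read 635, 552 and 469 and then 1188, 1124 and 1288. Its stages did not overlap, and its adjusted p was 0.0891 (log2 change 1.11, SE 0.39). It was called with 64 added to the intensities (0.0151), in the 6 arrays alone (0.0107) and with an intensity trend (0.0293).

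The chloroplast ribosomal protein RPL9 (LOC543077), known as CL9, was among the larger rises of the translation list. It had 352, 366 and 308 at 24 HAI and 1100.3, 1241 and 1179 at 48 HAI, a 3.33-fold rise (log2 change 1.74, SE 0.23, adjusted p = 0.000305). The other 10 probe sets of that list gave 1 rise, 1 fall and 8 that did not pass the test. NCBP (LOC100049030), a cap-binding protein, fell 1.69-fold from 5974, 5528 and 5423 to 3384, 3315 and 3267, after a first step of -0.05. The elongation factor TEF1 (LOC543386) was at 35388 ± 995 and 33282 ± 1450.3 (adjusted p = 0.818). A phenylalanyl-tRNA synthetase, CK153084, rose 1.45-fold (adjusted p = 0.00771), which was lost with equal medians (0.0781) and with hybridization and poly-A scaling (0.42 and 0.114). The 28 probe sets that the annotation gives to the plastid gene rbcL, the large subunit of Rubisco, had 0 rises and 1 fall, and 16 were under 32 at both stages. The brightest not called, an _x_at probe set, was at 33504 ± 376, 21751 ± 1538 and 35948 ± 1519 at 24, 36 and 48 HAI. Its adjusted p for 48 against 24 HAI was 0.694. What each of the 28 measures is uncertain, since so many were given to 1 plastid gene. Their median was 0.04, and it was -0.12 with either control scaling.

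Histone transcripts belong to DNA replication. Of 24 probe sets for 9 histone and chromatin genes, 9 rose, 0 fell and 15 did not pass the test, with a median of 0.46. No rise of the list was called with hybridization scaling (median 0.24), and 6 were with poly-A scaling (median 0.22). The linker histone LOC606310 was 7939.7, 7355 and 6719.8 at 24 HAI and 16341, 14961 and 15771 at 48 HAI, a 2.14-fold rise (log2 change 1.10, SE 0.24, adjusted p = 0.00911). In dry seed its mean was 16.2. H2A-2 (LOC732712) rose 1.94-fold from 2099, 2239 and 2423 to 4419, 4481 and 4254, and the chromatin protein Hmgb3 (LOC543333) rose 1.72-fold. The 4 histone and chromatin genes with the largest rises were not called with hybridization scaling, at adjusted p of 0.0565 for LOC606310, 0.106 for LOC606312, 0.0623 for H2A-2 and 0.119 for Hmgb3. LOC606310 was also not called with 1 added to the intensities (0.15). The brightest histone not called, H2A-9 (LOC732714), was at 21437 ± 527 and 25756 ± 673. The median step of the list was 0.54 before 36 HAI and -0.03 after it.

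Of 12 probe sets for tubulins and the actin-binding protein profilin, 7 fell, 0 rose and 5 did not pass the test, with a median of -0.54. Beta-tubulin Tubb5 (LOC543261, probe set with the larger change) had 11013, 9655 and 9578 at 24 HAI and 5649, 5442 and 5002 at 48 HAI (1.88-fold lower, log2 change -0.91, SE 0.17, adjusted p = 0.00386), and of its other 3 probe sets 2 fell and 1 was not called (-0.37). Profilin (LOC543315) had 10812, 11444 and 12021, a mean of 13845 at 36 HAI, and 6841, 6480.5 and 6787 at 48 HAI (1.7-fold lower), while a brighter probe set of the gene was at 20988 ± 582 and 20618 ± 631 (adjusted p = 0.957). The alpha-tubulin gene TUBA gave different answers by probe set. The dimmer fell 1.85-fold, from 4244, 5005 and 4595 to 2428, 2528 and 2495, and the brighter, an _x_at probe set, was at 24214 ± 486 and 23519.5 ± 591 (adjusted p = 0.926). Over the 28 core histone and tubulin probe sets, the summed intensity was 307697 to 316952 at 24 HAI and 336360 to 354525 at 48 HAI. Of the 28, 5 rose, 6 fell and 17 did not pass the test, so the sum mixes both directions. It was not rescaled to the controls.

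Cell wall genes divided into 3 probe sets that rose, 6 that fell and 1 that did not pass the test, for 9 genes. Their median was -0.53, with median steps of 0.31 and then -0.40. Expansins loosen the wall so that cells can stretch, and xyloglucan endotransglucosylases cut and rejoin its hemicellulose. Beta-expansin 1a (LOC543145) had 5135, 5477 and 5359 at 24 HAI, a mean of 5513 at 36 HAI, and 1162, 1139 and 954 at 48 HAI. The 4.87-fold fall (log2 change -2.28, SE 0.18, adjusted p = 7.43e-06) thus lay wholly after 36 HAI, with steps of 0.05 and -2.33. The COBRA-like gene LOC543124, from a family needed for oriented cellulose deposition, had 2877, 3005 and 2936, then a mean of 4037, then 1181, 1205 and 1363 (2.34-fold lower, log2 change -1.23, SE 0.14, adjusted p = 0.000103). The xyloglucan gene XTH had 2065, 1837 and 1904 at 24 HAI, 2037 in the mean at 36 HAI, and 672, 807 and 721 at 48 HAI. Its stages were far apart, and its adjusted p was 0.0229, rising to between 0.0512 and 0.0729 when any array was left out and to 0.0708 with 1 added. A glycosyl hydrolase of family 16, CK163798, fell 2.94-fold and did so before 36 HAI (steps -1.27 and -0.29). The BRU1-like gene CA686606, also of the xyloglucan-modifying kind, was 1531, 2291 and 1486 and then 3143, 3517 and 3048, which did not overlap, with an adjusted p of 0.13 (0.0422 with 64 added, 0.0443 in the 6 arrays alone and 0.0433 with an intensity trend). Another probe set of it, named after its value was seen, rose from 2628 to 6016 in the mean (log2 change 1.19).

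**Figure D3:**
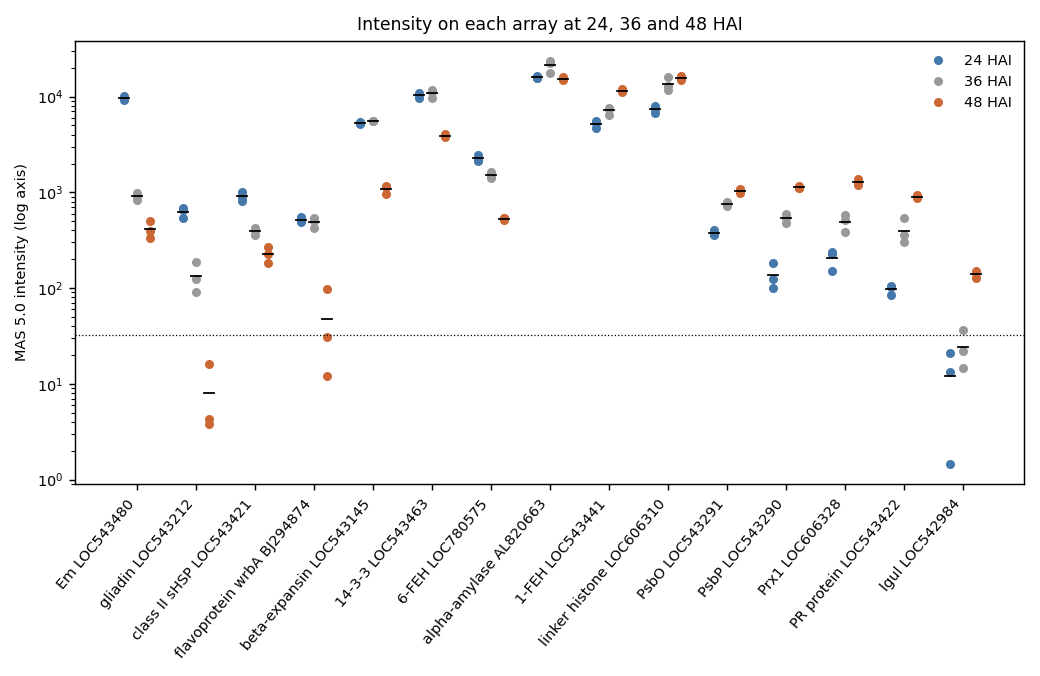
Intensity on a log axis of 15 genes in each of the 3 arrays at 24, 36 and 48 HAI, with a dotted line at 32. The Em, gliadin and wrbA points at 48 HAI lie below all points at 24 HAI, and the PsbP, Prx1 and 1-FEH points lie above them.

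Sugar supply showed opposite changes within the fructan enzymes. Of 12 probe sets for 8 genes of starch and fructan breakdown, 2 rose, 2 fell and 8 did not pass the test, with a median of 0.13 that turned to -0.09 with hybridization scaling and -0.10 with poly-A scaling. Fructan exohydrolases split fructose from fructans, and the 1-FEH and 6-FEH forms differ in the linkage they attack. 1-FEH (LOC543441) had 4691, 5264 and 5497 at 24 HAI and 11395, 11906 and 11159.7 at 48 HAI, a 2.23-fold rise (log2 change 1.16, SE 0.13, adjusted p = 8.41e-05). 6-FEH (LOC780575, _x_at probe set) had 2186, 2474 and 2111 and then 511, 541 and 538, a 4.15-fold fall (log2 change -2.05, SE 0.11, adjusted p = 4.56e-07). No array of either gene overlapped between the stages, and both moved in the same direction in both steps. The _a_at probe set of 6-FEH fell 2.87-fold (adjusted p = 0.0219), and lost the call without any of the 6 arrays but 24 HAI replicate 2 (0.0566 to 0.0691) and with 1 added (0.286). The remaining probe set given to 6-FEH was dim, at 50.4 ± 55.6 and 53.4 ± 36.9, and was not called (log2 change 0.20, adjusted p = 0.937).

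Alpha-amylase, which the aleurone secretes to open starch granules, was high from 24 to 48 HAI but not in earlier stages. AL820663, matched to its probe set only by its stage values, had 16429, 15738 and 15748 at 24 HAI, a mean of 21257 at 36 HAI, and 15129, 15934 and 14959.8 at 48 HAI. The stages overlapped (log2 change -0.06, SE 0.19, adjusted p = 0.925). Summed over 4 amylase probe sets the intensity was 30798 to 32187 at 24 HAI and 32381 to 33913 at 48 HAI. The 1 called, a rise, is listed under both amy1 and BMY1, so whether it is an alpha-amylase is uncertain. Starch synthesis had 1 rise among 7 probe sets, the ADP-glucose pyrophosphorylase LOC100037637 (1.57-fold, adjusted p = 0.0197), which was lost without replicate 2 or 3 of either stage (0.052 to 0.0834), with equal medians (0.0524) and with either control scaling (0.334 and 0.128).

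Most glycolysis and fermentation genes did not pass the test, 10 of 13, with 1 rise and 2 falls and a median of -0.02. GAPN, the cytosolic glyceraldehyde-3-phosphate dehydrogenase that makes NADPH, had 528, 538 and 735 at 24 HAI and 1118, 1064 and 1054 at 48 HAI (1.8-fold higher, log2 change 0.84, SE 0.15, adjusted p = 0.00204, but 0.117 with hybridization scaling). Hemoglobin 2 (LOC543085), a non-symbiotic hemoglobin, fell 1.92-fold from 2400.2, 2532 and 2370.4 to 1149.7, 1295 and 1352. An isocitrate dehydrogenase, CA599682, fell at an adjusted p of 0.0486 that was lost without each of the 6 arrays (0.0671 to 0.152) and in 3 further alternatives. Pyruvate decarboxylase (CD934753, matched by stage values) stood at 22749 ± 1789.9 and 21627 ± 1956, with overlapping arrays.

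Redox genes changed in both directions. Of 21 probe sets for 10 genes, 7 rose, 3 fell and 11 did not pass the test, and the median of 0.07 turned to -0.14 with hybridization and -0.16 with poly-A scaling. Prx1 (LOC606328), named as a peroxide-reducing enzyme, rose by 3 of its probe sets, and the remaining one changed by -0.20 on the log2 scale and was not called. The brightest had 225, 241 and 152 at 24 HAI and 1200.4, 1389 and 1294 at 48 HAI, a 5.99-fold rise (log2 change 2.58, SE 0.22, adjusted p = 1.26e-05), and the others rose 3.91-fold and 5.25-fold. The gene listed as lgul (LOC542984), a lactoylglutathione lyase that clears methylglyoxal, was near background at 24 HAI with 13.2, 1.45 and 21.1. With 127, 151 and 143 in the later arrays it rose at least 4.37-fold (log2 change 2.55, SE 0.25, adjusted p = 3.81e-05), with most of the rise after 36 HAI (steps 0.57 and 1.98). The flavoprotein wrbA (BJ294874), a quinone reductase by its name, went the other way. It had 491, 512 and 549.6 at 24 HAI, a mean of 485 at 36 HAI, and 12.1, 30.7 and 98.4 at 48 HAI, a fall of 3.33 on the log2 scale (SE 0.47, adjusted p = 0.000524), with a spread among the arrays of 48 HAI. The glutathione transferase GSTU6 (LOC542993) was at 1503 ± 31 and 1582 ± 48.3 (adjusted p = 0.825).

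Defence genes were likewise divided, with 6 probe sets of 13 risen, 4 fallen and 3 not called, for 9 genes. Their median of 0.06 turned to -0.14 and -0.16 with hybridization and poly-A scaling. A pathogenesis-related protein of the PRMS type, LOC543422 (_x_at probe set), had 105, 102 and 85.3 at 24 HAI and 928, 862 and 892 at 48 HAI, an 8.04-fold rise (log2 change 3.01, SE 0.20, adjusted p = 2.15e-06). The _at probe set rose 11.3-fold from 107, 53.9 and 3.82, a wider spread at the lower stage. A far brighter probe set given to the same gene rose 1.88-fold, from 15332 ± 447 to 28878 ± 154. It comes from another sequence cluster and is described as PRB1-3, not PRMS. PR5 (LOC543292), of the thaumatin-like class, rose 2.63-fold, all of it before 36 HAI, with -0.10 on the log2 scale thereafter. The germin-like protein LOC543438 had 5619, 5228 and 5940.5, then a mean of 5349, then 2033, 2193 and 2072 (2.65-fold lower, log2 change -1.41, SE 0.13, adjusted p = 2.47e-05). The lectin precursor WGA2 (LOC543494), the wheat germ agglutinin of the embryo, had 1786, 2086 and 1887 and then 469, 533 and 631, a 3.47-fold fall spread over both steps (-0.96 and -0.84). The lipid transfer protein LTP3 (LOC543095) was at 1866 ± 83 and 1374 ± 285, with an adjusted p of 0.093, and was called without 48 HAI replicate 2 (0.0275), with poly-A scaling (0.00754) and with an intensity trend (0.0215). A brighter probe set of LTP3 fell 1.9-fold (adjusted p = 0.000175).

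Hormone genes showed 4 falls, 0 rises and 4 probe sets that did not pass the test, with a median of -0.50 and steps of 0.24 and -0.49. The ABA response element binding factor LOC542951, which acts in abscisic acid signalling, had 2408, 2594 and 2773 and then 1415, 1616 and 1479.6 (1.72-fold lower, log2 change -0.78, SE 0.12, adjusted p = 0.00104). It fell before 36 HAI, with a mean of 1207 there. The jasmonate enzyme 12-oxophytodienoate reductase (CN012317) fell 1.74-fold after 36 HAI, from 6123, 5950.2 and 5132 to 2822, 3330.2 and 3772, and auxin response factor 3 (LOC543452) fell 1.71-fold over both steps. The brightest member not called, the ethylene-forming enzyme CK216168, was at 2211 ± 115 and 2558 ± 44.4 (log2 change 0.21, adjusted p = 0.544). The gibberellin enzyme GA20ox1d (LOC543325) had 343, 352 and 377 and then 286, 223 and 189. Its adjusted p of 0.0245 was lost without any of the 6 arrays but 48 HAI replicate 1 (0.054 to 0.104), in the 6 arrays alone (0.0839) and with an intensity trend (0.0907).

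Among transcription regulators, 3 probe sets of 21 rose, 7 fell and 11 did not pass the test, with a median of -0.30. The AP2 domain gene CA688294, a member of the study's PCR panel, had 119.7, 149 and 186 at 24 HAI and 39.5, 21.3 and 49.1 at 48 HAI, a 3.23-fold fall (log2 change -1.69, SE 0.25, adjusted p = 0.000615). Its primers, shown because it is the regulator of that panel, are written 5′ to 3′ without capitals.
CA688294 forward: agaggcgacaagaggaggc
CA688294 reverse: gcagcagcgaaccaatca

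A Myb-like gene, CA608693, fell 3.4-fold from 228.7, 191.9 and 243.1 to 41.3, 31.0 and 108.003, and the NAC gene LOC606326 fell at least 3.04-fold. A bZIP gene, CD373723, rose 1.88-fold from 340.72, 484.9 and 364.8 to 686, 776 and 804 (adjusted p = 0.00341, but 0.11 with hybridization scaling). Among these 4 regulators the arrays of the stages did not overlap. For the apical meristem, 3 regulators could be matched only by their stage values. CLV1, the receptor kinase that restrains the stem cell pool, changed by 0.31 on the log2 scale (adjusted p = 0.198), WUS, which maintains it, by 0.18 (0.38), and STM, which keeps cells undifferentiated, by -0.44 (0.0962). RML1, the glutathione synthesis gene needed for the root meristem and matched the same way, rose by 0.72 (adjusted p = 0.00125). Such matches rest on the study's own table of these samples, so they are no independent check of its genes.

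The 4 falls among signalling probe sets were larger after 36 HAI than before it. Of 18 probe sets for calcium and kinase signalling, 1 rose, 4 fell and 13 did not pass the test, with a median of -0.30. The 14-3-3 gene LOC543463 (the probe set with the largest change), of the phosphoprotein-binding adaptors, had 10474, 9636 and 10812 at 24 HAI, 10809.6 in the mean at 36 HAI, and 3740.0, 3855 and 4069.9 at 48 HAI. That is a 2.64-fold fall (log2 change -1.40, SE 0.12, adjusted p = 1.21e-05). Another probe set given to the same gene, from another sequence cluster, changed by -0.42 (adjusted p = 0.0514, under 0.05 in 6 alternatives, and at 0.0393 with the replicate number as a block). A calcium-dependent protein kinase, LOC780573, fell 1.82-fold, and the calcium-binding protein CCD1 (LOC542847) fell 1.6-fold after a first step of 0.05. Each has another probe set that was not called, at -0.29 and 0.16 on the log2 scale.

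Transporters had 2 rises, 5 falls and 4 probe sets that did not pass the test, for 8 genes, with a median of -0.39. ALMT1 (LOC543388), the malate channel of the root, had 381, 317 and 313 at 24 HAI, a mean of 1338 at 36 HAI, and 838, 628 and 725 at 48 HAI. It was higher in every array of 48 HAI (2.11-fold, log2 change 1.08, SE 0.15, adjusted p = 0.000403), and its steps of 1.94 and -0.86 ran in opposite directions. The mitochondrial porin LOC543311 rose 1.73-fold from 5857.0, 5360.9 and 6292.6 to 9938, 10200.1 and 10079 (adjusted p = 0.000423, but 0.147 with hybridization scaling). The plasma membrane proton pump ha1 (LOC543149), which energizes uptake, gave 3 probe sets that differ. An _at probe set fell 1.65-fold, from 12019.7, 13208 and 12149 to 7295, 7486 and 7846, and one _x_at probe set was at 15792 ± 357 and 18475 ± 1951 (adjusted p = 0.335). The other _x_at probe set was at 15074 ± 562 and 11481 ± 396 (adjusted p = 0.0526). The vacuolar cation/proton exchanger CD452864 of the PCR panel fell 1.46-fold, from 1371, 1546 and 1566 to 1086.8, 1029.5 and 943.9, before 36 HAI (steps -0.58 and 0.04). The ZIP transporter CD373830 fell 1.48-fold (adjusted p = 0.0202), but not without 24 HAI replicate 2 or 3 or 48 HAI replicate 2 (0.0685 to 0.0903), with equal medians (0.0541) or in the 6 arrays alone (0.0777).

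Genes of nitrogen, methyl and membrane lipid synthesis gave 3 rises, 5 falls and 5 probe sets that did not pass the test, with a median of -0.13. Genes annotated as alanine aminotransferase 2, which interconverts alanine and pyruvate, ran in opposite directions. LOC543047 had 675, 588 and 676 and then 1697, 1769.6 and 1765 (2.66-fold higher, log2 change 1.41, SE 0.12, adjusted p = 1.22e-05), and BQ804183 had 257, 349 and 423 and then 198.5, 116.3 and 119.0 (2.25-fold lower, log2 change -1.17, SE 0.22, adjusted p = 0.00354). Both pairs of stages were without overlap. The root isozyme of glutamine synthetase BJ297605, which fixes ammonium, fell 2.23-fold, from 531.0, 642.2 and 574.9 to 214.5, 265.3 and 278.2. A serine-forming phosphoglycerate dehydrogenase, BJ320120, fell 1.97-fold, mainly after 36 HAI (steps -0.19 and -0.79), and SAHH, which recycles the product of methylation, was at 34416 ± 1677 and 33228 ± 1282 (adjusted p = 0.908).

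Genes for metal handling gave 2 rises, 1 fall and 2 probe sets that did not pass the test, with a median of 0.16 that turned to -0.06 and -0.07 with hybridization and poly-A scaling. The heavy metal domain gene CD921955, whose dry seed mean was 35469, had 755, 741 and 783 at 24 HAI and 253, 239.6 and 196 at 48 HAI, a 3.18-fold fall (log2 change -1.67, SE 0.13, adjusted p = 7.26e-06). DMAS1 (LOC100037594), which makes the iron-chelating siderophore deoxymugineic acid, rose 1.89-fold by an _at probe set and 1.6-fold by an _a_at probe set. Neither rise was called with hybridization scaling (0.0709 and 0.243), and the _x_at probe set of the gene was at 1261 ± 71.3 and 1413 ± 95 (adjusted p = 0.664).

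Ubiquitin genes had 0 calls among 6 probe sets (median -0.30) by limma, with 1 fall by poly-A scaling and 1 without 48 HAI replicate 1. The ubiquitin-conjugating gene UBC1 (LOC543219) was at 18367 ± 725 and 17855 ± 930.2. The polyubiquitin BJ291458 of the PCR panel read 325, 196 and 279 and then 262.6, 65.8 and 129.96 (adjusted p = 0.147, and 0.0142 without 48 HAI replicate 1), with overlapping stages. A pair of other members of that panel fell outside the lists. An aldehyde dehydrogenase, BU099360 (the brighter of its probe sets), fell 1.42-fold (adjusted p = 0.0232), a call that was lost without 24 HAI replicate 1 or 3 or 48 HAI replicate 1 or 2 (0.061 to 0.0974), with equal medians (0.0714), with hybridization scaling (0.0934) and in the 6 arrays alone (0.0675). The epimerase CA632030 was at 463 ± 106 and 454 ± 159 (adjusted p = 0.943). Both named probe sets of the T-complex subunit in the panel were outside the calls.

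**Figure D4:**
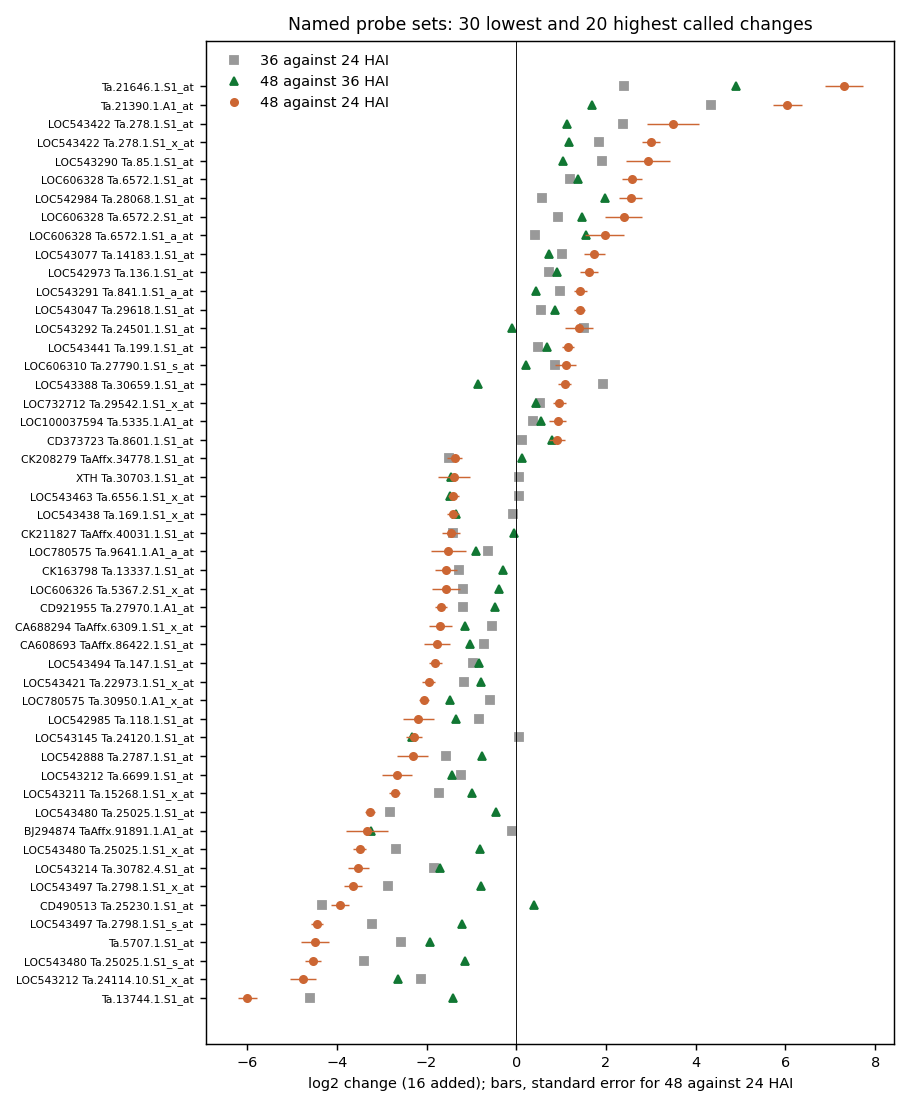
Log2 change from 24 to 36 HAI and from 36 to 48 HAI (horizontal axis) for the 30 named and called probe sets with the largest falls and the 20 with the largest rises (vertical axis). Em probe sets fell mostly in the first step (-3.39 and -1.14 for LOC543480), and wrbA and beta-expansin mostly in the second (-3.23 and -2.33).

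Of the 111 probe sets chosen by the rule for naming, 84 were called, and the arrays of the stages did not overlap for any of those 84. The rule picks called probe sets with large changes, so both counts follow from the choice. Over all probe sets tested, 13.8% were called and 33.0% had no overlap. Among all calls, 3974 of 3987 rises and 4407 of 4424 falls had none. The labels give germinating seed as the tissue, and its parts were read through markers. Gliadin and glutenin stand for the starchy endosperm, Em, LEA and dehydrin genes for the dry embryo, alpha-amylase for the aleurone, histones and tubulins for dividing cells and ALMT1 for the root. Of the 4 amylase probe sets, the 1 called is listed under both amy1 and BMY1 and may not be an alpha-amylase. Of the 13 gliadin and glutenin probe sets, 6 fell and 7 did not pass the test, and at 48 HAI the 13 summed to 450 to 490. Outside that sum, the bright probe set given above for the avenin-like storage protein LOC100125692 was at 4183 at 48 HAI and was not called. The probe sets given above for LOC543212 and LOC543214 had means under 32 at 48 HAI, close to background. Markers such as cathepsin B, carboxypeptidase, the small subunit of Rubisco, the chlorophyll a/b-binding protein and HKT1 had no name among the 356 probe sets and were not analysed here.

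Among the probe sets with no name in the annotation used, the 2 largest called rises and the 2 largest called falls are given by probe set. Ta.21646.1.S1_at had 22.4, 105 and 26.2 at 24 HAI and 8922, 9195 and 9427 at 48 HAI, a log2 change of 7.31. Its arrays of 24 HAI lay on both sides of 32, so the size of its rise is uncertain. Ta.21390.1.A1_at was higher by at least 45.8-fold (log2 change 6.04). The fall was at least 42.2-fold for Ta.13744.1.S1_at (log2 change -5.99). For Ta.5707.1.S1_at it was 22.5-fold (log2 change -4.49), and its 48 HAI arrays of 95.3, 86.2 and 23.0 also lay on both sides of 32. None of these 4 overlapped between the stages.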

How the data were processed

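The authors summarized the arrays with MAS 5.0, and the deposited values are probe set intensities on a linear scale. The image files were not used, and the sources used here give no version. Precision is limited by the number of arrays. Titles gave the stage of each of the 15 columns.

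After 16 was added, log2 values were fitted in limma 3.58.1 (R 4.3.3, lmFit and eBayes) with 5 stage means over the 15 arrays (10 residual degrees of freedom), and the contrast of 48 minus 24 HAI was tested two-sided. P-values were adjusted by Benjamini-Hochberg over 61115 probe sets, with a threshold of 0.05. SD are over 3 arrays, SE are those of limma. Fold changes are on the log2(value + 16) scale, so those of dim probe sets are understated. Bounds set values under 32 to 32 and leave out the 16. The fitting procedure was tested on simulated data with known changes, which were fewer than the calls made here. It missed most of the 2-fold changes and some of the 4-fold ones. A probe set that did not pass the test is therefore not shown to be unchanged. Tables and plots were made with Python 3.11.15, pandas 2.3.3 and matplotlib 3.10.9.

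Names came from the platform table (symbols and synonyms) and from the study's tables, matched by accession or sequence cluster and, for 13 probe sets, by stage values only. Among named probe sets, the rule for naming took the 12 largest rises and 12 largest falls with a stage mean of at least 100. It also took up to 4 calls of each list, the brightest member not called, members of the PCR panel, and 4 unnamed probe sets. Genes and lists were chosen with earlier results of these data known. The 16 alternatives covered the value added to the intensities, the scaling, a filter on dim probe sets, the arrays in the fit, an intensity trend, a replicate block, and leaving out each array.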

Additional observations from a re-analysis of the deposited data

How the results depend on the processing

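Of 84 named calls, 65 held in all 16 alternatives and 19 were lost in at least 1, while 10 of 27 named probe sets that were not called gained a call. No called one changed direction. Scaling mattered most. With hybridization scaling 1433 probe sets rose, and with poly-A scaling 2510 rose and 7777 fell, against 3987 and 4424. The cause was not tested. In the other alternatives with all 6 arrays, 2976 to 4936 rose and 3588 to 5452 fell, and without replicate 1, 2 or 3 of either stage, 2924 to 3054 rose and 3357 to 3608 fell.

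Medians of the lists with hybridization and then poly-A scaling were 0.24 and 0.22 for histones, -0.76 and -0.78 for tubulins, -0.75 and -0.77 for cell wall, -0.09 and -0.10 for starch and fructan breakdown, -1.37 and -1.39 for LEA proteins, -0.64 and -0.65 for heat shock proteins, -0.14 and -0.16 for defence, -0.71 and -0.73 for hormones, -0.51 and -0.53 for regulators, -0.42 and -0.44 for translation, -0.24 and -0.25 for glycolysis, -0.61 and -0.63 for transport, -0.35 and -0.36 for amino acid synthesis, -0.52 and -0.54 for signalling, -0.52 and -0.53 for ubiquitin, -0.60 and -0.61 for grain inhibitors, -0.14 and -0.16 for redox and -0.06 and -0.07 for metal handling. For storage proteins the median was -0.82 with 1 added and -1.16 with dim probe sets left out, where fewer members remain. Without 1 array the medians ranged from -0.06 to 0.19 for starch and fructan breakdown, 0.07 to 0.57 for starch synthesis, -0.19 to 0.27 for defence, -0.69 to -0.35 for hormones, -0.07 to 0.10 for rbcL, -0.06 to 0.03 for glycolysis, -0.62 to -0.19 for storage proteins (-0.33 with all arrays) and 0.02 to 0.26 for redox (0.07 with all arrays).

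Same-numbered arrays of the stages deviated with correlations of 0.045, 0.023 and -0.067, so the numbers are not taken as pairs. With the replicate number as a block, 3857 rose and 4260 fell, and among named probe sets the THI1.1 call was lost (adjusted p = 0.0532) and a LOC543463 probe set was called (0.0393). An intensity under 32 at both stages held for 18282 probe sets, where signal is close to background. Of these, 40 rises and 36 falls are among the calls.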
